A study of Homo sapiens with 4 samples.

Results

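The genes described here encode the subunits of the respiratory chain, in both the nuclear and the mitochondrial genome. They were chosen by symbol: the NDUF, UQCR, COX4 to COX8 and ATP5 families, CYC1, CYCS and the protein-coding genes of the mitochondrial genome, without symbols that mark pseudogenes. The symbols alone decided membership, although the family was picked with earlier results of these data known. It found 95 of the 22187 genes in the tables, 82 nuclear and 13 mitochondrial. Complex I had 46 members, complex III 11, complex IV 17 and ATP synthase 20, and CYCS, cytochrome c, was the 1 remaining member. The symbols are those of the deposited tables, which keep older names such as ATP5B for a catalytic subunit of ATP synthase. NDUFA4 and NDUFA4L2 were counted with complex I because of their symbols, although NDUFA4 protein is now assigned to complex IV. COX7A2L, a factor that joins complexes III and IV into supercomplexes, and ATP5S, a factor linked to ATP synthase, were likewise counted by symbol.

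The study sequenced RNA from KMS28BM and KMS18, established lines of human myeloma, a plasma cell cancer, both with the translocation t(4;14). In each line, 1 library came from cells in which PKCα, a protein kinase and the product of PRKCA, was stably knocked down, and 1 from cells with a luciferase control construct. Each line therefore gave 1 library per construct, with no replicate within a line, and the labels do not say whether the cells of a construct were 1 clone. The comparison asks how transcript levels differ when PKCα is reduced, and the lines serve as its 2 repeats.

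Library depth was 37940949 to 39507281 expected counts. Levels are given as FPKM, fragments scaled to gene length and library depth. PRKCA was at 2.43 FPKM in KMS28BM knockdown cells against 10.86 FPKM in KMS28BM control cells, and at 1.47 FPKM in KMS18 knockdown cells against 7.46 FPKM in KMS18 control cells. The 8 plasma cell markers were present in every library, between 4.99 and 699.6 FPKM, and summed to 1173 FPKM in KMS28BM knockdown cells against 1972 FPKM in KMS28BM control cells, and to 1224 FPKM in KMS18 knockdown cells against 1989 FPKM in KMS18 control cells. Of these 8, 6 fell with knockdown and 1, CD38, rose by edgeR. Of 3 T cell markers, CD3E rose, at 3.27 and 1 FPKM in KMS28BM knockdown and control cells and 20.95 and 7.32 FPKM in KMS18 knockdown and control cells, while CD3D and CD2 were at 0.22 FPKM or less. Summed levels were 0.35 to 2.04 FPKM for 3 myeloid markers, and at most 0.61 FPKM for 3 erythroid and 0.29 FPKM for 3 stromal markers, among which HBA1 and COL1A2 were at 0 in every library. In bulk RNA, fewer cells of a type and less RNA per cell cannot be told apart.

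The respiratory chain moves electrons from NADH through complex I, coenzyme Q, complex III, cytochrome c and complex IV to oxygen, and ATP synthase uses the resulting proton gradient to make ATP. Most subunits are encoded in the nucleus and imported, while a small set of core subunits of every complex but complex II is transcribed from mitochondrial DNA as long polycistronic RNAs that are cut into single messages. Plasma cells secrete large amounts of protein, and this work depends on ATP.

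Transcripts of the mitochondrial genome far outweighed those of the nuclear members. The 13 mitochondrial members took 8.29% of all counts in KMS28BM knockdown cells, 8.39% in KMS28BM control cells, 7.52% in KMS18 knockdown cells and 7.12% in KMS18 control cells. The 82 nuclear members took 1.24% in KMS28BM knockdown cells against 1.09% in KMS28BM control cells, and 0.970% in KMS18 knockdown cells against 0.858% in KMS18 control cells. The nuclear share was thus the higher one in the knockdown library of each line, and both KMS28BM libraries lay above both KMS18 libraries. The mitochondrial share was marginally lower in the knockdown library of KMS28BM and higher in that of KMS18. Mitochondrial counts were 6.67 times the nuclear ones in KMS28BM knockdown cells against 7.72 times in KMS28BM control cells, and 7.76 times in KMS18 knockdown cells against 8.30 times in KMS18 control cells. This ratio was lower with knockdown within each line, and the knockdown and control libraries overlapped when the lines were pooled.

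**Figure D1:**
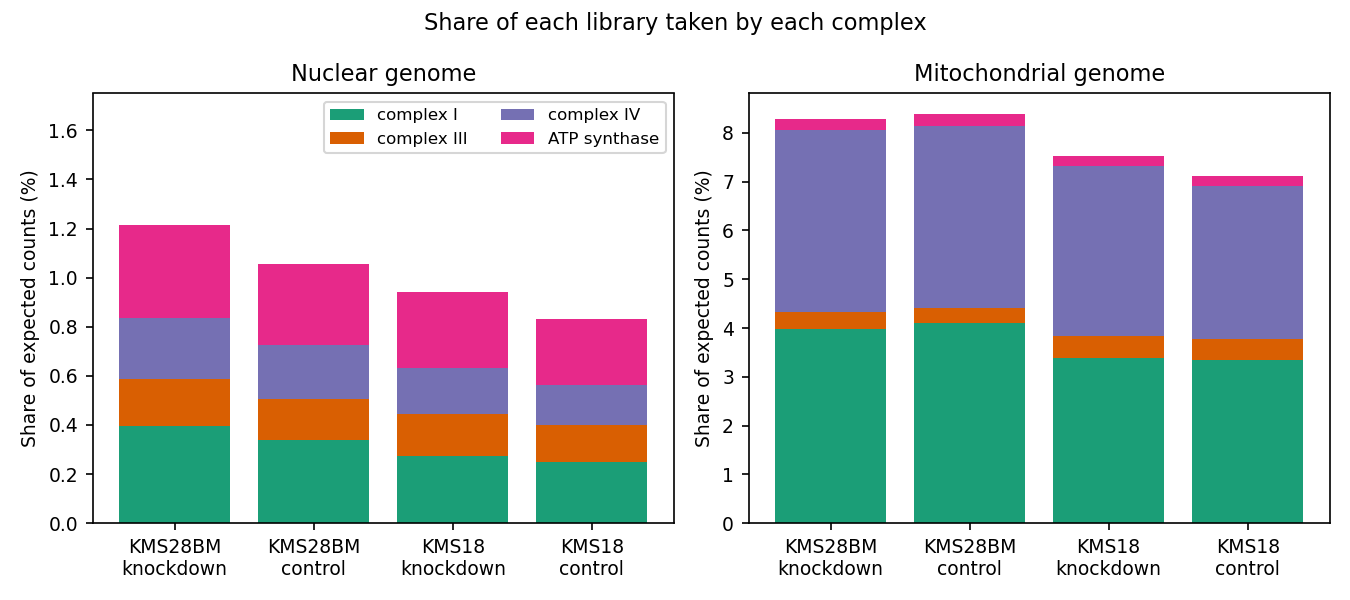
Share of each library's expected counts, in percent, taken by the nuclear (left) and mitochondrial (right) members, stacked by complex, with CYCS left out and different vertical scales in the panels. The nuclear bars are higher in the knockdown than in the control library of each line, while the mitochondrial bars lie between 7.12% and 8.39%.

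The levels of the nuclear members spanned a wide range, with medians of 147.4 FPKM in KMS28BM knockdown cells, 137.7 FPKM in KMS28BM control cells, 115.8 FPKM in KMS18 knockdown cells and 105.5 FPKM in KMS18 control cells. Among the complexes, nuclear complex IV members had the highest median in every library (334.6, 285.8, 241.3 and 209.3 FPKM in the same order). Nuclear complex I members had the lowest (119.6, 92.9, 73.86 and 67.4 FPKM). FPKM is scaled to gene length, so a comparison of levels between genes also depends on the length used. For short genes it lies above what the listed length gives. For MT-CO1, MT-CO3, MT-ND4, MT-ND5 and MT-ND6 the listed length did not match the annotated span. By mean over the libraries, ATP5G2, a c subunit of the rotor, and ATP5J2, the f subunit of the membrane part, were the highest nuclear members of ATP synthase, although in KMS18 ATP5J2 was far below ATP5B (181.2 against 459 FPKM in knockdown cells and 184.7 against 384.1 FPKM in control cells). ATP5G2 was at 508.6 and 514.7 FPKM in KMS28BM knockdown and control cells, and at 438.8 and 402.7 FPKM in KMS18 knockdown and control cells. CYC1, cytochrome c1 of complex III, was at 350.9 and 338 FPKM in KMS28BM knockdown and control cells, and at 452.5 and 477.4 FPKM in KMS18 knockdown and control cells. CYCS, the mobile electron carrier, differed little between libraries, at 159.3 and 160.8 FPKM in KMS28BM knockdown and control cells and 149.5 and 146.7 FPKM in KMS18 knockdown and control cells.

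**Figure D2:**
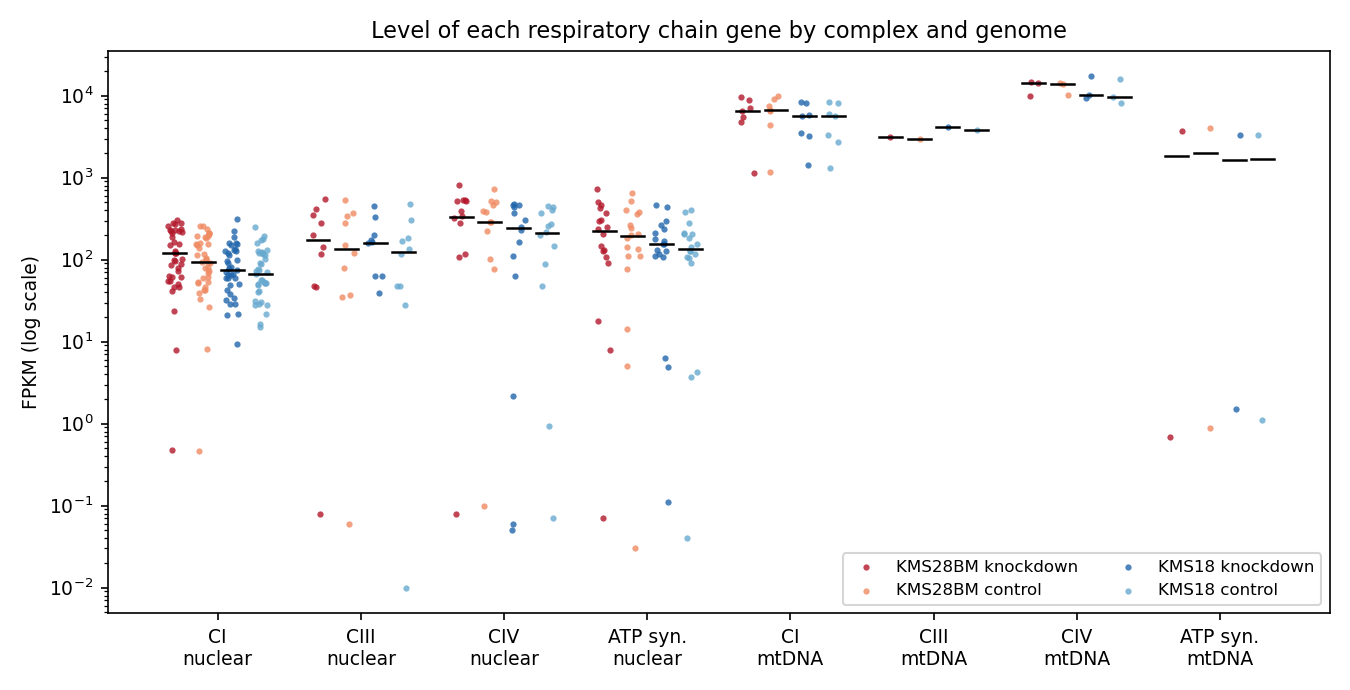
Level of each member in FPKM (log axis) by complex (C, complex) and genome, 1 point per gene, with a black bar at the median of the group in each library. CYCS is not drawn, nor are the 2 members listed at 0 in each library. Every mitochondrial gene but MT-ATP8 lies above all nuclear ones, and MT-ATP8 is the low point of the mitochondrial ATP synthase pair.

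Tissue-restricted isoforms of complex IV were far below their common forms. COX6B2, the testis form of a complex IV subunit, was at 0.08 and 0.10 FPKM in KMS28BM knockdown and control cells, and at 2.17 and 0.93 FPKM in KMS18 knockdown and control cells. Its common form COX6B1 was at 394.9, 378, 307.6 and 272 FPKM in the same library order. COX7A1, the heart and muscle form of another complex IV subunit, had 0 counts in both KMS28BM libraries, 1 in KMS18 knockdown cells and 2 in KMS18 control cells, against 344.7, 287.2, 230 and 198.4 FPKM for its common form COX7A2. COX7B2 had 1 count, in KMS18 knockdown cells. The gene copies UQCRHL and ATP5L2 had at most 7 and 3 counts, and reads of such copies can be split with UQCRH and ATP5L. NDUFA4L2, a hypoxia-inducible relative of NDUFA4, was at 7.89 and 8.11 FPKM in KMS28BM knockdown and control cells, and at 9.28 and 15.15 FPKM in KMS18 knockdown and control cells. The readthrough symbol ATP5J2-PTCD1 shares sequence with ATP5J2 and its value is uncertain for that reason, and NDUFC2-KCTD14 had 9 and 11 counts in KMS28BM and 0 in both KMS18 libraries.

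Of the 95 members, 89 passed the filter on low counts and were tested over both lines. The 6 that did not were ATP5L2, COX7A1, COX7B2, NDUFC2-KCTD14, UQCRHL and MT-ATP8, each with at most 11 counts in a library. Knockdown was compared with control by edgeR's quasi-likelihood test with the line as a block, and p-values were adjusted by Benjamini and Hochberg over all 14870 genes tested. A p-value here sets a gene's mean difference against a spread between the lines that is mostly borrowed from all genes. No line has repeat cultures, so variation between cultures is not measured. Of the 89 members, 1 rose and 0 fell (1.12% called), while 8.82% of all genes tested were called, 3.57% as higher and 5.25% as lower. At an unadjusted p under 0.05, edgeR listed 18 members, 16 higher and 2 lower. These were 20.2% of the members tested, against 26.4% of all genes tested. The higher ones were 18% of the members, above the 12.6% of all genes, and the lower ones 2.25%, below the 13.8% of all genes. DESeq2 called 5 of 88 members higher (5.68%, against 5.04% of all genes with an adjusted p), and edgeR with a filter at 5 CPM also called 5 of 88 (5.68% against 5.72%). Limma on log2(FPKM + 1) called 8 of 89 higher (8.99% against 4.19%), and each of these fits called 0 lower. COX7A2L, COX8A and NDUFB2 were each called higher in 4 alternative fits, those with DESeq2, with a filter at 5 CPM and with limma at either pseudocount. ATP5S was called at 5 CPM and NDUFV1 with DESeq2.

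The member that rose was UQCR10, a small subunit of complex III (chr22:29767369-29770413, plus strand, GRCh38). Its level was 118.9 FPKM in KMS28BM knockdown cells against 78.55 FPKM in KMS28BM control cells, and at 62.99 FPKM in KMS18 knockdown cells against 47.97 FPKM in KMS18 control cells. Knockdown was higher within each line, and the KMS18 knockdown value lay below the KMS28BM control value, so the pooled groups overlap. The expected counts behind these values were 3327, 2199, 1780 and 1335 in the same order. The log2 ratio was 0.53 in KMS28BM (0.46 to 0.61) and 0.36 in KMS18 (0.25 to 0.46), where the intervals are exact, at 95%, and cover counting error only. Over both lines the log2 difference was 0.45 (SE 0.10, edgeR adjusted p = 0.0458). Its adjusted p ran from 0.0319 with DESeq2 to 1 without the line as a block over the alternative settings, and it was 0.112 with no filter on low counts.

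The other nuclear members lay mostly on the same side of 0 without passing the test. Of the 77 tested, 62 had a positive log2 difference (80.5%, against 52.5% of all genes tested), and their median was 0.14, against 0.02 over all genes. The plasma cell markers and CD3E moved with construct in the same libraries, and their part in the members' values was not tested. The ratio was above 1 in both lines for 52 of them, 67.5%, against 35.5% of all genes. It was below 1 in both lines for 10 (13%, against 33.9% of all genes) and opposite in the lines for 15 (19.5% against 30.6%). Counting intervals lay above 0 in both lines for 35 members and below 0 in both for 3. They cover counting error only and are narrow at high counts, and the share over all genes was not computed. The median within a line was 0.14 in KMS28BM and 0.12 in KMS18. Across the 77 genes the ratios of the lines had a Pearson r of 0.329 and a Spearman rho of 0.512, against 0.288 and 0.465 over all genes tested. These are descriptions across genes of the same 4 libraries, and genes are not independent replicates.

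In complex I, 38 nuclear members were tested, 0 were called by edgeR, and the median log2 difference was 0.13. At an unadjusted p under 0.05, edgeR listed 7 higher and 2 lower (23.7%, against 26.4% of all genes tested). NDUFB2, an accessory subunit of the membrane arm, was at 281.5 and 210.3 FPKM in KMS28BM knockdown and control cells, and at 153.1 and 114.6 FPKM in KMS18 knockdown and control cells. Its log2 difference was 0.35 (SE 0.09, edgeR adjusted p = 0.0645), with knockdown higher in each line. NDUFA10, another accessory subunit of the membrane arm, was at 62.18 and 42.85 FPKM in KMS28BM knockdown and control cells, and at 21.58 and 16.34 FPKM in KMS18 knockdown and control cells. Its difference was 0.35 (SE 0.10, edgeR adjusted p = 0.0741). NDUFV1, which holds the flavin that accepts electrons from NADH, was at 253.9 and 196.9 FPKM in KMS28BM knockdown and control cells, and at 161.9 and 122 FPKM in KMS18 knockdown and control cells (edgeR adjusted p = 0.0724 and DESeq2 adjusted p = 0.00614, named after its value was seen).

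A few complex I members lay below 0. NDUFB5, an accessory subunit (chr3:179604690-179627647 on GRCh38, plus strand), had levels of 49.96 and 60.22 FPKM in KMS28BM knockdown and control cells, and at 48.76 and 56.12 FPKM in KMS18 knockdown and control cells. Both knockdown libraries lay below both control libraries. Its log2 difference was -0.34 (SE 0.10, edgeR adjusted p = 0.0824). NDUFB11, also accessory, had log2 ratios of -0.10 in KMS28BM and -0.22 in KMS18, and NDUFA5 had -0.07 and -0.08, while limma on log2(FPKM + 1) gave NDUFA5 a positive difference of 0.04. NDUFA4L2 had the lowest difference of all members tested, -0.47 (SE 0.19, edgeR adjusted p = 0.174), with ratios of -0.16 in KMS28BM and -0.76 in KMS18, and its KMS28BM counting interval spanned 0. The lines went opposite ways for NDUFB8 (0.18 in KMS28BM and -0.22 in KMS18) and NDUFS6 (0.08 and -0.18). NDUFS7, which carries an iron-sulphur cluster, had 0.31 and -0.01. Its KMS18 counting interval spanned 0, and its FPKM there was higher with knockdown (71.29 against 67.4).

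In complex III, 9 nuclear members were tested and their median log2 difference was 0.21. UQCR10 was the member called. At an unadjusted p under 0.05, edgeR also listed UQCR11, UQCRC1, a core subunit, and UQCRFS1, the Rieske iron-sulphur protein, all higher. With UQCR10 these were 4 genes (44.4%, against 26.4% of all genes tested). UQCR11 and UQCRC1 were likewise named after their values were seen. UQCRFS1 was at 45.98 and 37.24 FPKM in KMS28BM knockdown and control cells, and at 39.19 and 28.25 FPKM in KMS18 knockdown and control cells (log2 difference 0.32, SE 0.10, edgeR adjusted p = 0.0944, named after its value was seen). A pseudogene of it, UQCRFS1P1, had 504.5 and 383.7 counts in KMS28BM knockdown and control cells and 407.6 and 244.8 in KMS18 knockdown and control cells, and reads can be split between them. UQCRH, the hinge protein, had a difference of 0.01 (SE 0.10), and CYC1 had -0.08 (SE 0.10, edgeR adjusted p = 0.687).

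In complex IV, all 12 nuclear members tested had a positive difference over both lines, against 52.5% of all genes tested. They include COX6B2, whose ratio in KMS28BM was below 1 at few counts. The median was 0.13, and 0.117 without readthrough symbols and copies. Of the 12, edgeR called 0 (2 at an unadjusted p under 0.05, both higher, 16.7% against 26.4% of all genes). The ratio was above 1 in both lines for 9 of them (75%, against 35.5% of all genes tested) and opposite for 3 (25% against 30.6%). COX8A, the common form of the smallest subunit (chr11:63974607-63976543 on GRCh38, plus strand), had levels of 526.7 and 395.9 FPKM in KMS28BM knockdown and control cells, and at 366.7 and 261.1 FPKM in KMS18 knockdown and control cells. Its log2 difference was 0.39 (SE 0.09, edgeR adjusted p = 0.0522). COX7A2L was at 107 and 77.8 FPKM in KMS28BM knockdown and control cells, and at 63.71 and 48.04 FPKM in KMS18 knockdown and control cells, with a difference of 0.37 (SE 0.09, edgeR adjusted p = 0.0582). COX7C had ratios of -0.04 in KMS28BM and 0.24 in KMS18. Its KMS28BM counting interval spanned 0, and its FPKM there was higher with knockdown (527.8 against 513.6). COX6B2 had the highest difference of the members, 0.81, but its SE was 0.53 and it rested on 6 and 7 counts in KMS28BM knockdown and control cells and 103 and 41 in KMS18 knockdown and control cells.

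In ATP synthase, 17 nuclear members were tested, 13 were positive (76.5%, against 52.5% of all genes tested), and the median was 0.16. By edgeR, 0 were called (3 at an unadjusted p under 0.05, all higher, 17.6% against 26.4% of all genes). ATP5S was at 7.87 and 5.11 FPKM in KMS28BM knockdown and control cells, and at 6.25 and 4.27 FPKM in KMS18 knockdown and control cells. Its log2 difference was 0.53 (SE 0.13, edgeR adjusted p = 0.0518). ATP5O, a stalk subunit, had ratios of -0.22 in KMS28BM and 0.10 in KMS18. ATP5J2 had 0.13 and -0.07, and ATP5G2 -0.08 and 0.07. The KMS18 counting interval of ATP5J2 spanned 0. CYCS had -0.03 in each line.

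**Figure D3:**
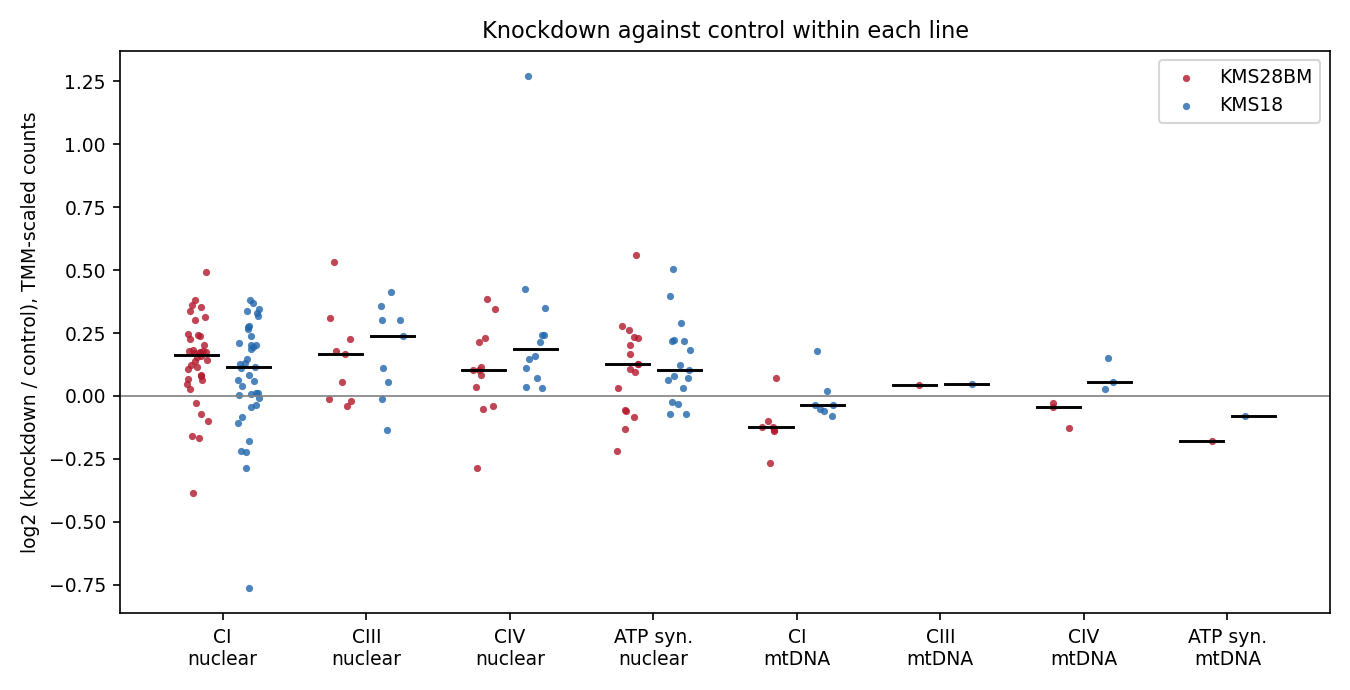
Log2 ratio of knockdown to control on scaled counts for each tested member, within KMS28BM (red) and KMS18 (blue), by complex and genome, with a black bar at the group median and CYCS left out. The medians of the nuclear groups lie above 0 in both lines, from 0.10 to 0.24, and most mitochondrial points lie within 0.2 of 0.

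The mitochondrial members did not share the position of the nuclear ones on the count scale. Of 12 tested, 0 were called and 0 had an unadjusted p under 0.05 by edgeR, and DESeq2 and limma also called 0. Their median log2 difference was -0.07, with -0.12 in KMS28BM and -0.01 in KMS18, and 5 were positive (41.7%, against 52.5% of all genes tested). The sign of that median depended on the scale, since limma on log2(FPKM + 1) gave 0.03. The ratio was below 1 in both lines for 6 genes (50%, against 33.9% of all genes tested) and above 1 in both for 2 (16.7% against 35.5%). The difference between the nuclear and the mitochondrial members was not tested.

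Among the complex I core subunits of the mitochondrial genome, MT-ND4 was at 9551 and 9889 FPKM in KMS28BM knockdown and control cells, and at 8495 and 8373 FPKM in KMS18 knockdown and control cells. MT-ND2 was at 8849 and 9028 FPKM in KMS28BM knockdown and control cells, and at 8082 and 8177 FPKM in KMS18 knockdown and control cells. MT-ND5 was at 6496 and 6767 FPKM in KMS28BM knockdown and control cells, and at 5819 and 6066 FPKM in KMS18 knockdown and control cells. For these 3 genes the count ratios were below 1 in each line, with log2 differences of -0.08, -0.09 and -0.09 (SE 0.13, 0.12 and 0.12), although the FPKM of MT-ND4 was the higher one in KMS18 knockdown cells. The listed lengths of MT-ND5, 1294 to 1410 bases, were below its annotated span, which raises its FPKM. MT-ND4L had the lowest difference of the mitochondrial genes, -0.16 (SE 0.11), with -0.26 in KMS28BM and -0.05 in KMS18. MT-ND3 had the highest, 0.13 (SE 0.11), at 4750 and 4340 FPKM in KMS28BM knockdown and control cells and 3194 and 2691 FPKM in KMS18 knockdown and control cells. MT-ND1 had -0.14 in KMS28BM and 0.02 in KMS18. MT-ND6, the member on the other strand, was at 1153 and 1178 FPKM in KMS28BM knockdown and control cells and 1416 and 1322 FPKM in KMS18 knockdown and control cells. Its count ratios were below 1 in each line (log2 -0.14 in KMS28BM and -0.04 in KMS18), although its FPKM was higher in KMS18 knockdown cells. Its listed length, 702 to 756 bases, exceeded its annotated span. Strand was not kept, so its reads cannot be told apart from those of transcripts on the opposite strand.

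MT-CYB, cytochrome b of complex III, was at 3174 and 2931 FPKM in KMS28BM knockdown and control cells, and at 4163 and 3858 FPKM in KMS18 knockdown and control cells, with log2 ratios of 0.04 and 0.05. The catalytic core of complex IV held the most abundant messages. MT-CO2 was at 14400 and 13990 FPKM in KMS28BM knockdown and control cells, and at 17240 and 16180 FPKM in KMS18 knockdown and control cells. MT-CO3 was at 14660 and 14250 FPKM in KMS28BM knockdown and control cells, and at 10340 and 9535 FPKM in KMS18 knockdown and control cells. The log2 count ratios of MT-CO2 were -0.03 in KMS28BM and 0.03 in KMS18, and those of MT-CO3 -0.04 and 0.05. For both genes KMS28BM thus had a higher FPKM with knockdown and a count ratio below 1. MT-CO1 was at 9880 and 10260 FPKM in KMS28BM knockdown and control cells, and at 9419 and 8217 FPKM in KMS18 knockdown and control cells, with log2 ratios of -0.13 and 0.15. The listed lengths of MT-CO1, 1648 to 1706 bases, and of MT-CO3, 848 to 878 bases, exceeded their annotated spans and differed between libraries. MT-ATP6, which forms the proton channel of ATP synthase, was at 3717 and 4018 FPKM in KMS28BM knockdown and control cells, and at 3296 and 3335 FPKM in KMS18 knockdown and control cells (log2 difference -0.13, SE 0.11).

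MT-ATP8 and MT-ATP6 are read from 1 bicistronic message, yet the tables gave MT-ATP8 4 and 5 counts in KMS28BM knockdown and control cells and 9 and 7 in KMS18 knockdown and control cells. MT-ATP6 had 91810 and 99525 counts in KMS28BM knockdown and control cells and 78923 and 80071 in KMS18 knockdown and control cells. The genes overlap by 46 bases at chrM:8527-8572 on the plus strand (GRCh38). The overlap, from GENCODE version 29, is shown because reads that touch it match both genes.
MT-ATP8 and MT-ATP6 overlap: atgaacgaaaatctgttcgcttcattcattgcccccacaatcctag
The overlap is only a part of MT-ATP8, which spans chrM:8366-8572 and has a listed length of 207 bases. How the authors' counting divided reads that touch the overlap is not stated, and why MT-ATP8 had so few counts was not tested. Its value therefore says nothing of the amount of that message.

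The lines differed from each other far more than knockdown differed from control. In the same fit, with KMS28BM set against KMS18 over both constructs, 46 of 89 members were higher and 12 lower in KMS28BM (65.2% called). Among all genes tested 62.9% were called, 30.6% as higher and 32.3% as lower. The share called was therefore close to the background, while the higher calls among members outnumbered the lower ones. Of the 77 nuclear members, 43 were higher and 11 lower, with a median log2 difference of 0.34, against -0.02 over all genes. The nuclear medians were 0.43 for complex I, 0.23 for complex III, 0.30 for complex IV and 0.23 for ATP synthase. Each line has 1 library per construct, so this test counts the constructs as repeats of a line.

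ATP5J2 (chr7:99448475-99466331, minus strand, GRCh38) was at 735.5 and 651.1 FPKM in KMS28BM knockdown and control cells, against 181.2 and 184.7 FPKM in KMS18 knockdown and control cells. Its log2 difference between lines was 1.77 (SE 0.10), and that of the readthrough symbol ATP5J2-PTCD1, which shares its reads, was 1.79 (SE 0.12). UQCRH was at 544.3 and 534.8 FPKM in KMS28BM knockdown and control cells, against 198.3 and 183.2 FPKM in KMS18 knockdown and control cells (1.41, SE 0.10). NDUFS8, an iron-sulphur subunit of complex I, was at 235.3 and 188.7 FPKM in KMS28BM knockdown and control cells, against 76.9 and 70.55 FPKM in KMS18 knockdown and control cells (1.41, SE 0.10). NDUFB1, an accessory subunit, had 1.55 (SE 0.11). In each of these genes both KMS28BM libraries lay above both KMS18 libraries.

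Lower in KMS28BM were NDUFA9, an accessory complex I subunit, and ATP5G3, a c subunit of ATP synthase. NDUFA9 was at 47.03 and 38.82 FPKM in KMS28BM knockdown and control cells, against 95.53 and 76.65 FPKM in KMS18 knockdown and control cells (-1.10, SE 0.10, edgeR adjusted p = 0.0001). ATP5G3 had -0.55 (SE 0.09), CYC1 -0.52 (SE 0.10), NDUFA4L2 -0.69 (SE 0.19, with a DESeq2 adjusted p of 0.078) and COX6B2 -3.47 (SE 0.56). COX6B2 had 6 and 7 counts in the KMS28BM libraries and passed the filter only through KMS18, where it was higher. Its value is therefore given as a description. Without it, 11 members were lower. Among the mitochondrial genes, MT-ND1, MT-ND3 and MT-CO3 were higher in KMS28BM (0.995, 0.537 and 0.411 on the log2 scale) and MT-CYB lower (-0.48, SE 0.12). MT-ND1 was at 7075 and 7396 FPKM in KMS28BM knockdown and control cells, against 3515 and 3321 FPKM in KMS18 knockdown and control cells.

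**Figure D4:**
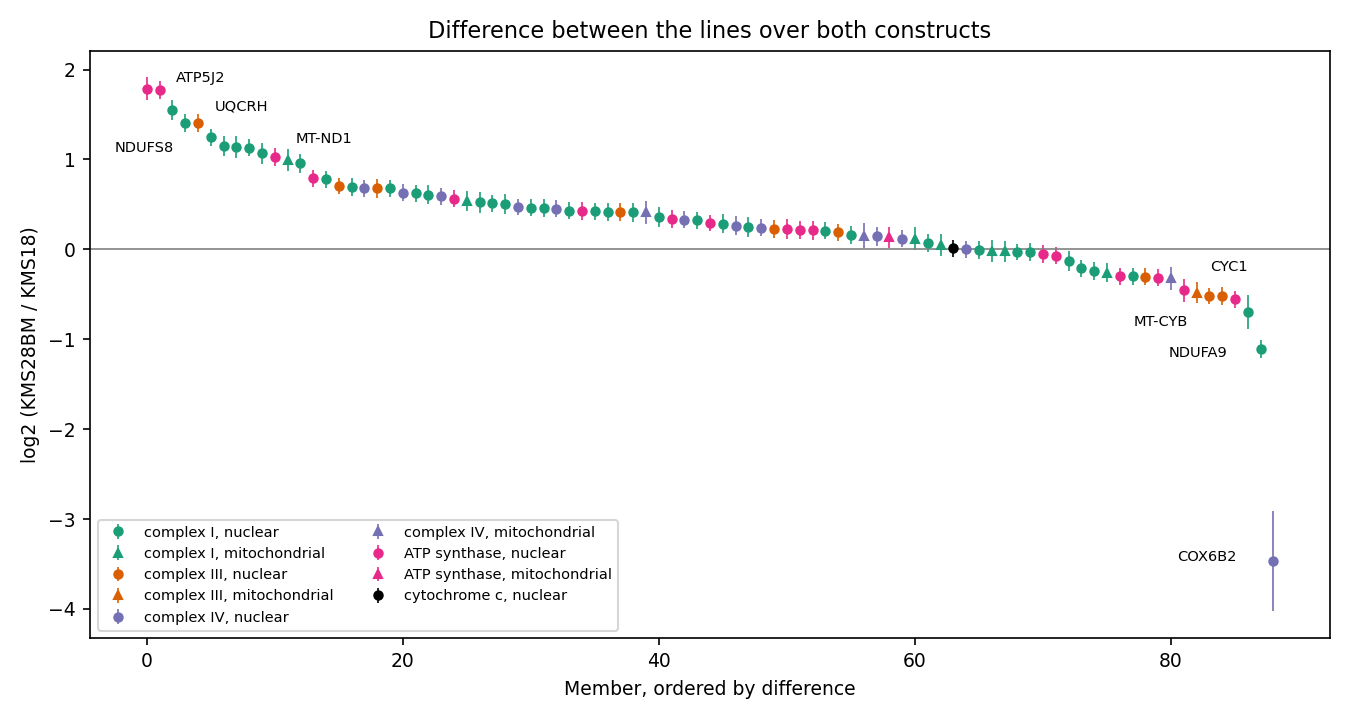
Log2 difference between KMS28BM and KMS18 over both constructs for the 89 tested members, ordered by size, with bars of 1 SE, coloured by complex, with circles for nuclear and triangles for mitochondrial genes. ATP5J2 stands at 1.77 and COX6B2, which passed the filter on low counts only through KMS18, at -3.47. Of the 89 members, 65 lie above 0 (73%, against 49.1% of all genes tested).

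Sequence around the members was read for motifs. The promoters of 63 members were found in RefSeq (GRCh38.p14), as windows of 300 bases around a start site, and both strands were searched for 8-base cores of factors known to act at respiratory genes. The NRF1 core CGCATGCG was in 10 of them (15.9%, against 4.43% of the promoters of 10570 tested genes). The GABP core CCGGAAGT was in 10 (15.9% against 9.85%) and the YY1 core AAGATGGC in 11 (17.5% against 6.4%). Any of these cores stood in 28 members (44.4% against 18.9%). A gene with several listed promoters was counted once if any held the core. A match is a description of letters and not a bound site. The promoters of UQCR10, the gene that rose, and COX8A, next below the threshold in complex IV, are shown with any core in capitals. UQCR10 lies at chr22:29767119-29767418 and COX8A at chr11:63974370-63974669, both on the plus strand.
UQCR10: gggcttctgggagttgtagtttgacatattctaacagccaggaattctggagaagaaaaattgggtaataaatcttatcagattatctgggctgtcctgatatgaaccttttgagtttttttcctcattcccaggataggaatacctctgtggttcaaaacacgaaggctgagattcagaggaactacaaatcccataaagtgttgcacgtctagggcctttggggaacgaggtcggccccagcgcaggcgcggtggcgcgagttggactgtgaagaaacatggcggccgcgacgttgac
COX8A: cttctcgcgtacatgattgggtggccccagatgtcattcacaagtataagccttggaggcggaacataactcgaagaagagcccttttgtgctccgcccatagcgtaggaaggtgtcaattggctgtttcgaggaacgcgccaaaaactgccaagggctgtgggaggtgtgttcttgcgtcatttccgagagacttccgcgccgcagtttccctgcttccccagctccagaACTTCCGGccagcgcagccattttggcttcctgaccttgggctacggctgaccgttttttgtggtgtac
None of these cores was in the UQCR10 window, and COX8A held the GABP core on the minus strand.

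A 7-base sequence, AGTCTAA, was looked for in 3′ untranslated regions because an earlier search of these data had turned it up. Of 1167 tested genes that hold it, 210 fell and 28 rose. Of all 14870 genes tested, 781 fell (5.25%) and 531 rose (3.57%). This larger set also holds genes without a searched region. Since the sequence came from these same data, these counts are a description and no independent support. The search was limited to the sense strand of GENCODE version 29 transcripts. Among the nuclear members tested it was in 7 of 77 (9.09%, against 8.94% of 13056 genes). Their median log2 difference was 0.21, against 0.13 for the nuclear members without it. Over all genes searched the median was -0.15 with it and 0.02 without it. The overlapping 7-mer CAGTCTA was in 5 (6.49% against 8.76%) and the 6-base part AGTCTA in 17 (22.1% against 25.1%). Sites of 5 of the 7 members are shown with the matched bases in capitals. NDUFB9 and UQCRB are not shown, and both had positive log2 differences (0.21 and 0.08).
NDUFB2: tttacctatgCAGTCTAAattgcactcta
ATP5S: ttaccctaaatAGTCTAAaaaggggagga
COX7A2L: tcttaaacctgAGTCTAAtttctttcttg
NDUFA5: ttaattattatAGTCTAAacaaatttata
NDUFB5: gaagttatagaAGTCTAAtaatgttaagc
The first 3 of these genes had positive differences in both lines (0.35, 0.53 and 0.37 over both) and the last 2 negative ones (-0.08 and -0.34, with 0.04 for NDUFA5 by limma on log2(FPKM + 1)), and none passed the main edgeR test. With the filter at 5 CPM, edgeR called NDUFB2, ATP5S and COX7A2L higher (adjusted p = 0.0471, 0.0457 and 0.0428). NDUFB2 holds both 7-mers joined.

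The genes that build, supply and regulate the chain were compared by lists. Of 116 genes tested in 9 lists, 7 rose and 5 fell (10.3% called), near the background of the knockdown comparison. Complex II, which passes electrons from succinate to coenzyme Q and has no mitochondrial gene, had 1 of 4 higher. This was SDHD, a membrane anchor, at 123.2 and 91.14 FPKM in KMS28BM knockdown and control cells and 82.71 and 58.97 FPKM in KMS18 knockdown and control cells (0.39, SE 0.09, edgeR adjusted p = 0.0477). Assembly factors of complex I had 1 of 19 higher, DMAC1 (0.50, SE 0.10), and those of complex IV 1 of 25, HIGD2A (0.60, SE 0.10, edgeR adjusted p = 0.016). Those of complex III had 1 of 6 lower. This was BCS1L, which inserts the Rieske protein, at 20.47 and 35.76 FPKM in KMS28BM knockdown and control cells and 18.69 and 23.98 FPKM in KMS18 knockdown and control cells (-0.68, SE 0.12). ATP synthase assembly had 0 of 5 called by edgeR (1 at an unadjusted p under 0.05), and coenzyme Q synthesis 1 of 11, COQ2, higher (0.64, SE 0.14).

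Regulators and RNA factors moved in both directions. Of 13 nuclear regulators, MYC fell by 0.91 (SE 0.13, edgeR adjusted p = 0.0128) and GABPA, the DNA-binding part of GABP, by 0.48 (SE 0.10). ESRRA, a nuclear receptor that activates respiratory genes, rose (0.46, SE 0.10), and NRF1 had -0.27 (SE 0.13, edgeR adjusted p = 0.235). Of 14 genes of mitochondrial transcription and replication, POLG, the catalytic subunit of the mitochondrial DNA polymerase, rose (0.54, SE 0.10), while TFAM had -0.15 (SE 0.10). Among 19 genes of mitochondrial RNA processing and stability, 1 rose and 2 fell. SLIRP, which binds and stabilizes mitochondrial messages with LRPPRC, was at 126.4 and 219.1 FPKM in KMS28BM knockdown and control cells, and at 41.96 and 76.26 FPKM in KMS18 knockdown and control cells (-0.87, SE 0.11, edgeR adjusted p = 0.00873). LRPPRC itself had -0.03 (SE 0.10). HSD17B10, a subunit of mitochondrial RNase P, was at 94.08 and 51.45 FPKM in KMS28BM knockdown and control cells, and at 67.4 and 20.71 FPKM in KMS18 knockdown and control cells (1.21, SE 0.19, edgeR adjusted p = 0.0153). REXO2, an exonuclease of short RNAs, fell by 0.44 (SE 0.10). Knockdown lay on the same side in both lines for SLIRP and HSD17B10.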

How the data were processed

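Per the file headers, each library's deposited table gives every gene an expected count, which is the authors' estimate of its reads. It also gives an FPKM value and a gene length. The authors' FPKM values are scaled to gene length and library size. For short genes they lie above what the expected count, the listed length and the library total give. Per the labels' protocols, total RNA was taken with a column kit and libraries with a TruSeq RNA kit that does not keep strand. STAR, Bowtie2 and HISAT, with GRCh37 and hg19, stand in the submitters' processing notes without roles, and no counting program is stated there. Positions come from GENCODE version 29 (GRCh38), looked up by gene identifier with no conversion. Both measures were summed per symbol, and an absent gene was set to 0. This joined several identifiers for 5 members. Of 118 matching symbols, 23 were left out as pseudogenes, and MT-ATP6 and MT-ATP8 were kept although their symbols end in P and a digit.

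Expected counts were rounded and tested with edgeR 4.0.16 (R 4.3.3, TMM scaling, quasi-likelihood, default filter with a minimum count of 10) on all 4 libraries, with line and construct as terms. The labels tie 1 control and 1 knockdown library to each line, so line is the block. This left 1 residual degree of freedom, moderated to a prior of 5.85, and p-values were adjusted by Benjamini and Hochberg at 0.05. Log2 ratios within a line have no test, and their 95% intervals are exact and cover counting error only. Alternatives were RLE scaling, no filter, at least 5 CPM in 2 libraries, DESeq2 1.42.0, limma 3.58.1 on log2(FPKM + 1) and log2(FPKM + 0.1) for genes reaching 1 FPKM, library sizes from nuclear genes, no block, each line alone, and no readthrough symbols or copies. Members were named if past the threshold, among 6 per direction with the largest smaller ratio at 5 FPKM or more, 3 per opposite pattern, 5 per direction between lines, 3 highest per complex, mitochondrial or restricted; others are marked. The members and lists were chosen with earlier results of these data known. The depth was 37940949 to 39507281 expected counts per library.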

Additional observations from a re-analysis of the deposited data

Results flagged for a closer look

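For 8 of the members named by the rule, the log2 ratio of knockdown to control had opposite signs in the lines, with both counting intervals clear of 0. There is 1 library per construct in a line, so none of these differences was tested, and the intervals cover counting error only. The values given are the KMS28BM log2 ratio minus the KMS18 log2 ratio. Among nuclear genes, NDUFB8 differed by 0.395 and NDUFS6 by 0.26, both with the higher ratio in KMS28BM. ATP5O differed by -0.322 and ATP5G2 by -0.154, both with the higher ratio in KMS18. Among mitochondrial genes the ratio was the higher one in KMS18 for MT-CO1 (-0.277), MT-ND1 (-0.156), MT-CO3 (-0.0985) and MT-CO2 (-0.0555). These 4 genes have high counts, and their intervals are narrow.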

How the results depend on the processing

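Without the pairing by line (no replicate block) edgeR called 0 members, against 1 with it, and with no filter on low counts also 0. The number of members called higher was 5 at 5 CPM, 5 with DESeq2, 8 with limma on log2(FPKM + 1) and 9 on log2(FPKM + 0.1), and 0 were called lower in each of these fits. Between lines, both limma fits called 7 members lower, against 12. Each line alone has no residual degrees of freedom, so it gives values and no calls. The median of the nuclear members was 0.146 with RLE and with DESeq2, 0.123 with no filter, 0.157 at 5 CPM, 0.19 and 0.191 with limma, and 0.123 to 0.137 over the lines alone, against 0.135. The mitochondrial median became 0.0311 and 0.0191 with limma. Limma gave 0.194 and 0.197 for complex I, 0.265 and 0.267 for complex III, 0.194 and 0.195 for complex IV, and 0.18 and 0.181 for ATP synthase. Complex III had 0.138 with no filter. ATP synthase had 0.186 at 5 CPM, 0.102 to 0.126 over the lines alone and 0.111 without readthrough symbols and copies. Signs of knockdown differences near 0 turned in several fits. ATP5G2 had 0.00402 with RLE, 0.0194 at 5 CPM, 0.00397 with DESeq2 and 0.0531 and 0.0532 with limma. Limma also gave 0.00936 and 0.00954 for ATP5O, 0.00706 and 0.00711 for CYCS, 0.00894 for MT-ND1, 0.0343 for MT-ND6, 0.0436 and 0.0444 for NDUFA5, 0.0435 and 0.0432 for NDUFB8, and 0.0152 for NDUFS6. NDUFB8 had 0.00972 at 5 CPM and 0.0537 without the block. With no filter MT-CO2 had -0.00644, MT-CO3 -0.0034 and UQCRH -0.00137, and without the block MT-CO3 had -0.00268 and UQCRH -0.0145. Over the lines alone the differences ran from -0.084 to 0.0697 for ATP5G2, -0.0718 to 0.126 for ATP5J2, -0.22 to 0.102 for ATP5O, -0.303 to 1.27 for COX6B2, -0.038 to 0.241 for COX7C, -0.127 to 0.15 for MT-CO1, -0.0265 to 0.029 for MT-CO2, -0.045 to 0.0535 for MT-CO3, -0.135 to 0.0201 for MT-ND1, -0.218 to 0.177 for NDUFB8, -0.18 to 0.0807 for NDUFS6, -0.00835 to 0.313 for NDUFS7, and -0.0404 to 0.054 for UQCRH. The cause was not tested.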
